A study of Homo sapiens with 2 samples.

Results

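The kinases and adaptors that carry the signal of the pre-B cell receptor (pre-BCR) were examined in REH and 697, human cell lines of B-cell precursor acute lymphoblastic leukemia. The set was chosen by name and holds 10 of the 57773 genes counted, namely SYK, ZAP70, BLK, LYN, FYN, LCK, BLNK, BTK, PLCG2 and PIK3CD. REH is positive for ETV6/RUNX1 and its remaining ETV6 allele is deleted, whereas 697 is negative for that fusion. Both were grown in RPMI with fetal bovine serum, with no agent named in the labels, and sequenced as 1 library of total RNA each, so every ratio compares these libraries and no p-value can be given. Each line is the clonal descendant of a single leukemia and cannot stand for its genetic subtype.

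The pre-BCR is the checkpoint receptor of B-cell precursors. Its heavy chain and surrogate light chain sit on the signaling pair CD79A and CD79B, whose tyrosine motifs are phosphorylated by SRC family kinases and then bind SYK. SYK phosphorylates the adaptor BLNK, which brings BTK to PLCG2, while the p110δ subunit encoded by PIK3CD makes the membrane lipid to which BTK binds. ZAP70 and LCK are best known for the same steps below the T-cell receptor, but both are also found in B-lineage leukemia.

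The REH library had 45188375 reads in genes and the 697 library 41097497. In the tested set of 19145 genes, those with at least 10 reads in a library, levels are given as CPM (reads relative to the TMM-scaled library total) and as CPM per kb of exon where genes are compared with each other. Unless another pair is named, the log2 ratio is that of REH over 697 with 0.5 reads added, and brackets or ranges beside it give the 95% counting interval, which covers counting error only. Of 11 B-lineage markers found, 10 had at least 10 reads in REH and all 11 in 697. The exception was VPREB1, the variable part of the surrogate light chain, with 3 reads in REH and 10039 in 697. A lower value in bulk RNA can mean fewer cells with the transcript or less of it per cell, and these cannot be told apart.

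All 10 genes were transcribed in both lines, with 402 to 20493 reads in REH and 872 to 14693 in 697, but the lines used them in different proportions. PLCG2, BTK and SYK were the genes most in favor of REH. LYN, LCK, BLK and BLNK were the genes most in favor of 697, with ZAP70 leaning the same way, and FYN and PIK3CD stood close to even. Past an absolute log2 ratio of 2, the threshold used throughout, 2 of the 10 (PLCG2 and BTK) were higher in REH, where 12.5% of all genes tested and 10.9% of protein-coding genes were. In the other direction 1 of the 10 (LYN) was higher in 697, against 8.15% of all genes and 7.17% of protein-coding genes. These counts lie near the background for a list of this size. With the threshold lowered to 1, 3 of the 10 were higher in REH (22.4% of all genes and 19.5% of protein-coding genes) and 4 were higher in 697 (17.4% and 15.5%). The median log2 ratio of the 10 was -0.32 (order-statistic interval -1.69 to 2.88) against 0.05 over all genes tested, and the median size of the ratio was 1.37 against 0.74. The 10 genes were chosen by name, so this interval describes their spread only and is no test against all genes. Without TMM scaling the median of all genes moved by 0.31 on the log2 scale and each of the 10 ratios moved with it, none of them changing sign.

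**Figure D1:**
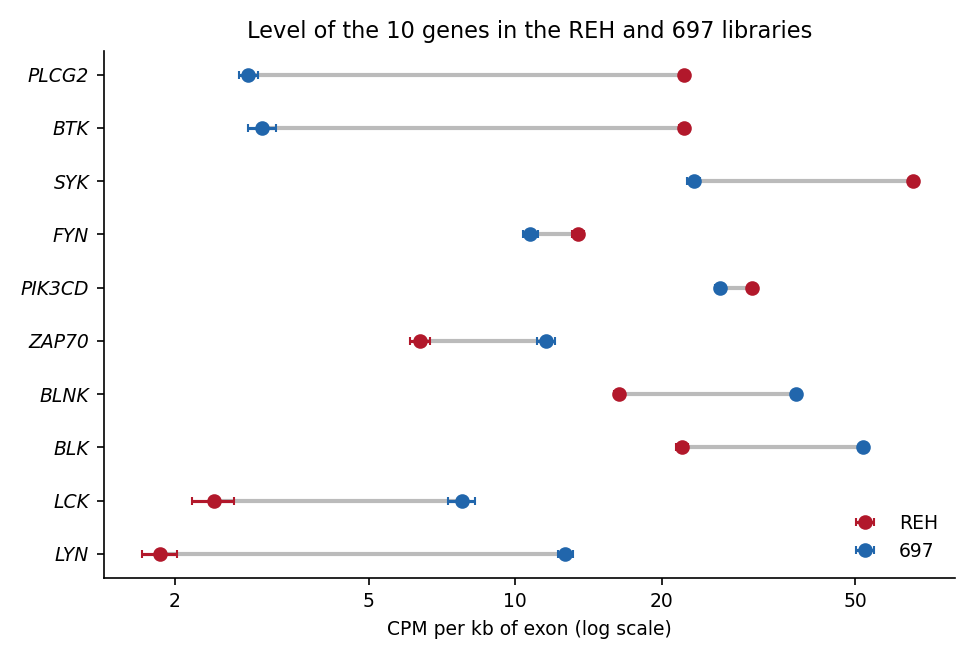
Level of each gene in CPM per kb of exon on a log axis, with 1 point for the REH library (red) and 1 for the 697 library (blue) and bars for the exact 95% Poisson counting interval. The genes are ordered by their log2 ratio, and the gray line between the points is longest for PLCG2, BTK and LYN.

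**Figure D2:**
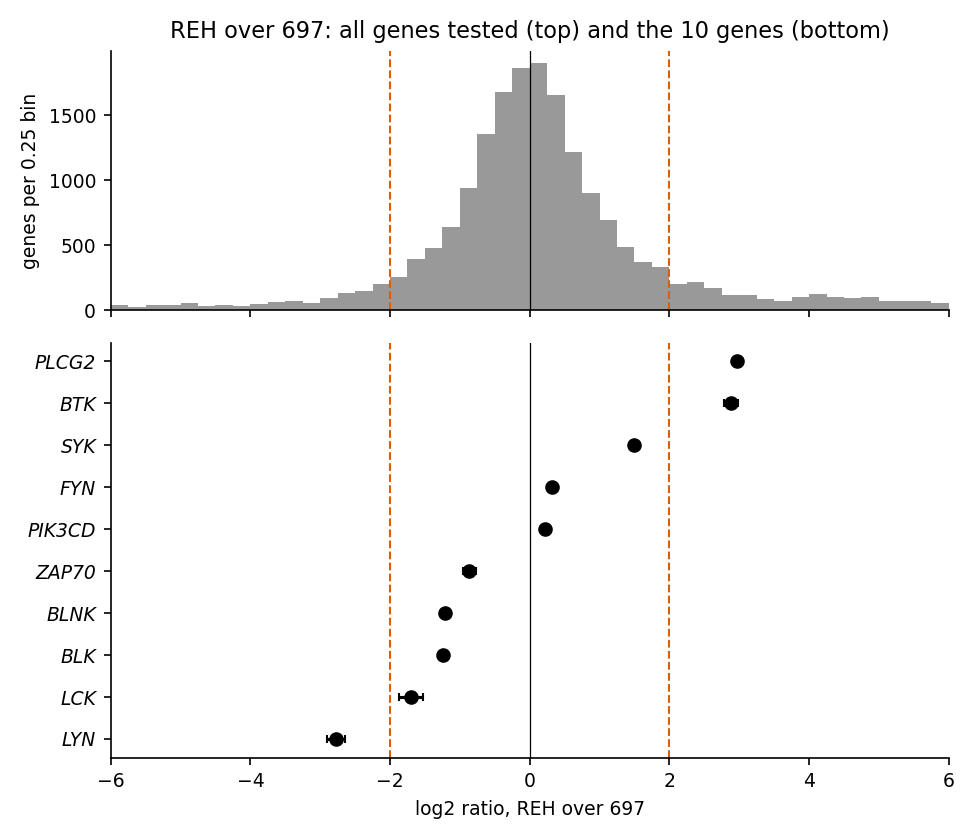
Log2 ratio of REH over 697 for all 19145 genes tested (top, genes per bin, with 1037 genes beyond 6 in size not drawn) and for the 10 genes (bottom, points with 95% counting intervals). Dashed lines mark a log2 ratio of 2 in size, which PLCG2, BTK and LYN exceeded.

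The 250 bases upstream of an annotated start site are given for a gene at each step with an absolute log2 ratio of 1 or more. These are SYK and BTK on the REH side and BLNK and LCK on the 697 side. RefSeq lists 3 windows for SYK, 2 for BTK, 2 for LCK and 1 for BLNK. Counts per gene do not show which start either line used. The sequences are those of RefSeq on GRCh38.p14, written 5′ to 3′ on the strand of the gene, at the RefSeq start nearest to that of the canonical transcript. Capitals mark matches, on either strand, to TGTGGT (RUNX), CAGGTG (E-box), TCCC-NN-GGGA (EBF, N being any base), CCGGAAGT (ETS), GAGGAAGT (PU.1) or ATTTGCAT (octamer). The ETS and PU.1 strings have GGAAGT in common.
SYK (chr9:90801569-90801818, plus strand): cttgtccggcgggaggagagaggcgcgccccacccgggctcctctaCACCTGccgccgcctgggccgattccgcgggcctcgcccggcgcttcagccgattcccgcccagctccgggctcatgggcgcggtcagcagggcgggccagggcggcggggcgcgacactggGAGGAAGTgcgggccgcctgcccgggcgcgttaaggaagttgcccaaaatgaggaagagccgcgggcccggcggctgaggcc
BTK (chrX:101386192-101386441, minus strand): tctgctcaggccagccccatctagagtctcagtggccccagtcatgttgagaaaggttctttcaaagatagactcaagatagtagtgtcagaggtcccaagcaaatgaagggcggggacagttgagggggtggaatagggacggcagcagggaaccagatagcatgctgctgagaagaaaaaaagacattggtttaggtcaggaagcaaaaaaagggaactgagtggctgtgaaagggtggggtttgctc
BLNK (chr10:96271570-96271819, minus strand): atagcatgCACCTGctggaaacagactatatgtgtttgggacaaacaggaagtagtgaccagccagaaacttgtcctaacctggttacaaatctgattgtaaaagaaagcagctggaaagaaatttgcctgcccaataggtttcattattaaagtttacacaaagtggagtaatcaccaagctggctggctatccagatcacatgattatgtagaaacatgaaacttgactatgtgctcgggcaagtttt
LCK (chr1:32251015-32251264, plus strand): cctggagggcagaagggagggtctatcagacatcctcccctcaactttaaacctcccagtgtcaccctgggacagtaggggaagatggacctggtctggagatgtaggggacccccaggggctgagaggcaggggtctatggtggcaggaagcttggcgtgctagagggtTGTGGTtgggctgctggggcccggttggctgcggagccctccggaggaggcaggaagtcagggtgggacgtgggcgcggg
The SYK window held an E-box match 204 bases and a PU.1 match 82 bases before the start, and BLNK an E-box match at 242 bases. LCK held a RUNX match at 80 bases. In the BTK window none of the 6 strings occurred. Over all 34943 RefSeq windows of this length, 11% held the RUNX string, 17.5% the E-box, 1.06% the EBF, 3.39% the ETS, 2.17% the PU.1 and 1.63% the octamer string. Of the other members whose window was searched, ZAP70 and FYN held no match and PIK3CD held an E-box match at 187 bases. No window of BLK or LYN was searched, although both had an absolute log2 ratio of 1 or more. Among the sequences shown, LCK is therefore the only member of the SRC family, and its match cannot stand for BLK or LYN. The window listed for PLCG2 lies 40250 bases from its canonical start and is not shown. These are matches of letters and not measured binding.

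SYK (chromosome 9, 90801787 to 90898549, GRCh38), the kinase that reads the phosphorylated CD79 tails, had 17188 reads in REH and 4476 in 697. This was 342 CPM in REH and 121 CPM in 697, a log2 ratio of 1.5 (1.45 to 1.54) or 2.82-fold. In REH it was the most abundant of the 10 per kb of exon, at 65.6 CPM per kb, above 97.3% of the protein-coding genes with at least 10 reads. In 697 it reached 23.3 CPM per kb and came after BLK, BLNK and PIK3CD. The intervals of the lines did not overlap. Gene length bears on such orders, and per kb of the canonical transcript BTK came next after SYK in REH, and ZAP70 was slightly above SYK in 697.

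ZAP70 (chromosome 2, 97713576 to 97739862), the paralog of SYK that serves the T-cell receptor, went the other way. It had 1700 reads (33.8 CPM) in REH and 2273 reads (61.5 CPM) in 697, with a log2 ratio of -0.86 (-0.95 to -0.77). ZAP70 was therefore present in both lines, above 53.7% of coding genes per kb in REH and 68.0% in 697. Of the reads of this kinase pair, ZAP70 took 9.0% in REH (exact 95% interval 8.60% to 9.42%) and 33.7% in 697 (32.6% to 34.8%). The ratio of SYK to ZAP70 reads fell from 10.1 in REH to 1.97 in 697, a change of 5.13-fold that depends neither on library scaling nor on gene length. Per kb of exon SYK stayed above ZAP70 in 697, at 2.01-fold, but per kb of the canonical transcript the pair was level there, at 0.959.

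The T-lineage markers were checked because LCK and ZAP70 belong to that lineage. Of 14 markers found, CD3D, CD2, CD7 and CD4 had 0 reads in both libraries, which allows at most 0.0664 CPM in REH and 0.0730 CPM in 697 at 3 reads before scaling. The summed level of the list was 44.8 CPM in REH and 60.3 CPM in 697. BCL11B, a T-lineage transcription factor, made up most of it, with 22.7 CPM in REH and 50.02 CPM in 697. Past the threshold, TCF7 (477 reads in REH, 6 in 697), CD247 (498 and 87) and CD3E (45 and 0) were among those higher in REH, and GATA3 (41 and 203) and CD8A (0 and 10) were higher in 697. Among 7 NK markers, NKG7 was past the threshold in favor of 697 (123 reads in REH and 542 in 697) and PRF1 in favor of REH (53 and 6). NCAM1 and NCR1 had 0 reads in both. ZAP70 and LCK leaned toward 697 but stayed under the threshold. The part of the T-lineage and NK markers in the ZAP70 and LCK values was not tested.

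Within the SRC family, which starts the signal by phosphorylating CD79A and CD79B, BLK was the leading member in both lines. BLK (chromosome 8, 11486894 to 11564599), a kinase largely restricted to the B lineage, had 5516 reads (110 CPM) in REH and 9553 reads (259 CPM) in 697. Its log2 ratio was -1.24 (-1.28 to -1.19). At 51.9 CPM per kb it was the most abundant of the 10 genes in 697, above 94.5% of coding genes. BLK took 34.0% of all reads of the 9 SRC family genes in REH and 46.0% in 697.

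LYN (chromosome 8, 55879835 to 56014169), which both starts receptor signaling and recruits its inhibitors, differed most. It had 577 reads (11.5 CPM) in REH and 2889 reads (78.2 CPM) in 697, with a log2 ratio of -2.77 (-2.90 to -2.64), or 6.81-fold higher in 697. Only 5.55% of all genes tested lay further toward 697. In REH, LYN was the lowest of the 10 genes per kb, at 1.86 CPM per kb, below LCK at 2.4 CPM per kb, and their counting intervals did not overlap. Its share of the family reads was 3.56% in REH and 13.9% in 697.

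LCK (chromosome 1, 32251244 to 32286165), the T-cell member of the family, was low in both lines but more so in REH. It had 402 reads (8.0 CPM) in REH and 956 reads (25.9 CPM) in 697, with a log2 ratio of -1.69 (-1.87 to -1.52). FYN (chromosome 6, 111660332 to 111873452), which is expressed widely in lymphoid and other cells, had 5011 reads (99.7 CPM) in REH and 2941 reads (79.6 CPM) in 697. Its log2 ratio was 0.32 (0.26 to 0.39), larger than counting error but far smaller than those of LYN and LCK. FYN took 30.9% of the family reads in REH and 14.2% in 697, so that by reads BLK and FYN together led in REH while BLK led alone in 697. Per kb of exon BLK was above FYN in both lines, at 1.64-fold in REH and 4.83-fold in 697. Set against FYN in the same library, LYN reads were 0.115 of FYN in REH and 0.982 in 697, a change of 8.53-fold. The same change was 4.05-fold for LCK and 2.95-fold for BLK.

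The 5 other SRC family kinases held 93.6 CPM in REH and 120 CPM in 697 together. SRC itself was even (50.8 and 49.5 CPM, log2 ratio 0.04, interval -0.05 to 0.12), YES1 reached 29.4 CPM in REH and 69.7 CPM in 697, and FGR had 4 reads in REH and 2 in 697. FRK had 136 reads in REH and 0 in 697, at least 33.3-fold higher in REH when 697 is set at 3 reads. Per kb, however, FRK was low in REH, at 0.202 CPM per kb against 22 for BLK. Myeloid markers also differed, with a summed level over 8 genes of 279 CPM in REH and 3.14 CPM in 697. In REH this was mostly MPO (12643 reads in REH and 12 in 697), with CSF3R (920 and 32), ITGAM (403 and 0) and CD33 (22 and 1) also past the threshold in favor of REH, while LYZ had 1 read in REH and 2 in 697 and FCGR1A had 0 in both. CSF1R, the largest part of the sum in 697, went the other way with 30 reads in REH and 61 in 697, at a log2 ratio of -1.46 (-2.15 to -0.81) that is under the threshold. CD14 had 29 reads in REH and 8 in 697, also under the threshold. SYK, BTK and PLCG2 are all used by myeloid cells too. So is the adaptor LCP2, which went the other way, at a log2 ratio of -3.45. The part of the myeloid markers in the ratios of these genes was not tested.

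**Figure D3:**
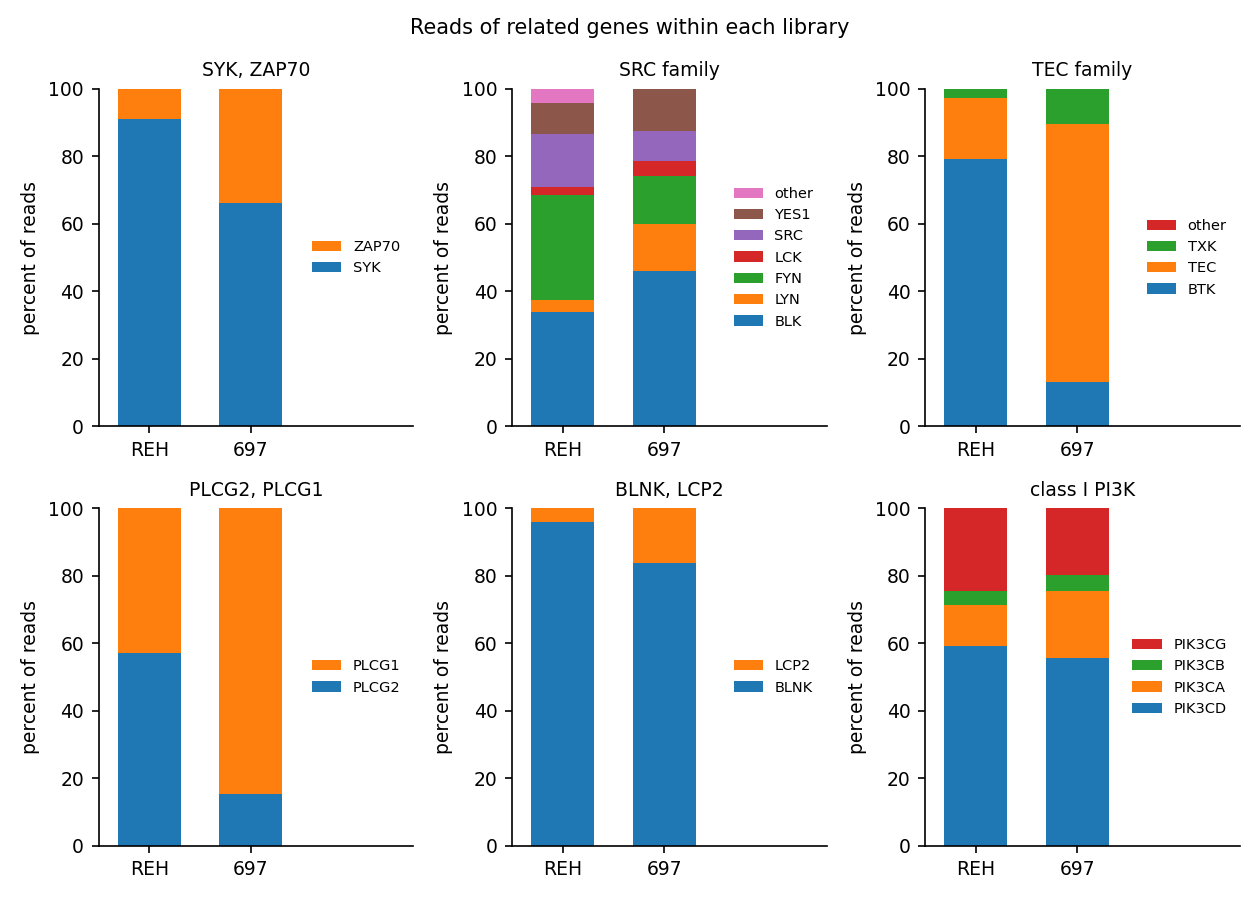
Share of reads (percent, bars from 0 to 100) of each gene among related genes within the REH and 697 libraries, for 6 groups of genes, with the least abundant genes drawn together as other. The shares do not depend on scaling between the libraries, and the main gene of the TEC family is BTK in REH (79.4%) and TEC in 697 (76.5%).

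BLNK (chromosome 10, 96189171 to 96271587), the scaffold on which BTK and PLCG2 meet, was abundant in both lines and higher in 697. It had 8658 reads (172 CPM) in REH and 14693 reads (398 CPM) in 697, with a log2 ratio of -1.21 (-1.25 to -1.17). Per kb it was next after BLK in 697, at 37.7 CPM per kb, but below 5 of the others in REH, at 16.3. Exons of BLNK overlap those of ZNF518A on the opposite strand and of a pseudogene of NPM1, and the separate strand columns held 13.3% more reads in REH and 13.5% more in 697 than the pooled column. This excess covers only overlap on the opposite strand and can include reads of ZNF518A itself. The pseudogene lies on the same strand, so reads shared with it are in none of the columns. The full loss to ambiguous reads is therefore not known. The homolog LCP2, the SLP-76 adaptor of T and myeloid cells, followed BLNK with a larger difference, at 357 reads in REH and 2868 in 697 (log2 REH/697 of -3.45, interval -3.61 to -3.29). BLNK still took most reads of this pair, 96.0% in REH and 83.7% in 697.

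BTK (chromosome X, 101349338 to 101390796), the TEC family kinase that activates PLCG2, had 8730 reads (174 CPM) in REH and 872 reads (23.6 CPM) in 697. The log2 ratio was 2.88 (2.78 to 2.98), or 7.35-fold higher in REH, and 9.09% of all genes tested lay further toward REH. In 697 BTK stood above 33.3% of coding genes per kb, and in REH above 86.5%. The related kinase TEC ran opposite, with 1960 reads (39.0 CPM) in REH and 5056 reads (137 CPM) in 697, a log2 ratio of -1.81 (-1.89 to -1.74). BTK therefore took 79.4% of the TEC family reads in REH (interval 78.6% to 80.2%) and 13.2% in 697 (12.4% to 14.03%), and TEC took 17.8% and 76.5%. The ratio of BTK to TEC reads was 4.45 in REH and 0.172 in 697, a change of 25.8-fold (log2 change 4.69, exact interval 4.56 to 4.82) and the largest among the pairs of related genes examined. The order in each line was the same per kb of exon and per kb of the canonical transcript. TXK held 2.66% and 10.3% of the family reads, and BMX had 0 reads in both.

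PLCG2 (chromosome 16, 81779279 to 81962685), the phospholipase that releases calcium and diacylglycerol after receptor engagement, showed the largest ratio of the 10 toward REH. It had 20493 reads (408 CPM) in REH and 1915 reads (51.8 CPM) in 697, with a log2 ratio of 2.98 (2.91 to 3.04), or 7.86-fold. Its level per kb placed it above 86.5% of coding genes in REH and 32.1% in 697. In REH, PLCG2, BTK and BLK had overlapping counting intervals per kb, at 22.2, 22.2 and 22 CPM per kb, and in 697 the intervals of PLCG2 (2.83) and BTK (3.02) overlapped at the bottom of the 10. This closeness depends on the length used. Per kb of the canonical transcript the values were 47.0, 67.4 and 49.5 in REH, and 5.98 (PLCG2) and 9.17 (BTK) in 697. PLCG1, the isoform of T cells and many other tissues, hardly differed, at 307 CPM in REH and 287 CPM in 697 (log2 REH/697 of 0.10). PLCG2 thus took 57.1% of the reads of the pair in REH and 15.3% in 697. Per kb of exon PLCG1 was above PLCG2 in both lines, whereas per kb of the canonical transcript PLCG2 was 1.09-fold above it in REH and 0.148 of it in 697.

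The scaffold and its clients were set against each other within each library. For every BLNK read there were 1.01 BTK reads and 2.37 PLCG2 reads in REH, and 0.0593 and 0.130 in 697. The balance of BTK to BLNK changed by 17.0-fold and that of PLCG2 to BLNK by 18.2-fold. SYK to BLNK changed by 6.52-fold, from 1.99 to 0.305. BTK, PLCG2 and SYK were therefore all lower relative to their adaptor in 697 than in REH.

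PIK3CD (chromosome 1, 9629889 to 9729114), the leukocyte isoform of the class I PI3K catalytic subunit, was similar in the lines. It had 14747 reads (293 CPM) in REH and 9300 reads (252 CPM) in 697, with a log2 ratio of 0.22 (0.18 to 0.26). Per kb it came next after SYK in REH (30.7 CPM per kb) and next after BLNK in 697 (26.3), and took 59.3% and 55.6% of the reads of the 4 class I catalytic genes. PIK3CG held 24.5% and 19.7%, PIK3CA 12.1% and 19.8%, and PIK3CB 4.08% and 4.95%.

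Upstream, the signaling pair was higher in REH. CD79A had 655 CPM in REH and 287 CPM in 697 (log2 REH/697 of 1.19, interval 1.16 to 1.22), and CD79B had 481 CPM in REH and 120 CPM in 697 at a log2 ratio of 2.0 that sits on the threshold. IGHM, the μ heavy chain, went the other way, at 592 CPM in REH and 1400 CPM in 697. So did the surrogate light chain genes. VPREB1 had 3 reads in REH and 10039 in 697 (log2 REH/697 of -11.9). IGLL1 reached 291 CPM in REH and 504 CPM in 697, at a log2 ratio of -0.79. Of these 5 pre-BCR components, 1 was higher in REH and 1 in 697, against 12.5% and 8.15% of all genes tested. Their median log2 ratio was -0.79.

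One step below BTK and PLCG2, the transcript of PRKCB was nearly absent from 697. Of 11 genes of the branch around VAV, PKC and RASGRP proteins, 2 were higher in REH and 0 in 697, with 9 under the threshold, and the median log2 ratio was -0.26. Over all genes tested 12.5% were higher in REH and 8.15% in 697, so these counts lie near the background for a list of this size. PRKCB, the protein kinase C isoform that diacylglycerol activates in B cells, had 16704 reads (332 CPM) in REH and 87 reads (2.35 CPM) in 697, with a log2 ratio of 7.13 (6.84 to 7.46). Further toward NF-κB, the adaptor BCL10 reached 17.4 CPM in REH and 12.0 CPM in 697, and its partner MALT1 reached 42.9 and 72.5 CPM. VAV1, a guanine nucleotide exchange factor, led the branch per kb in REH (36.0 CPM per kb), and the GTPase RAC2 led it in 697 (34.9).

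Among the 18 other adaptors and coreceptors, 16 had enough reads, of which 2 were higher in REH, 2 were higher in 697 and 12 were under the threshold, with a median of 0.03. The shares over all genes tested were 12.5% higher in REH and 8.15% higher in 697. DAPP1, an adaptor that binds PI3K lipids, had 253 reads in REH and 0 in 697, at least 62-fold higher in REH with 697 set at 3 reads. BANK1, which links LYN to calcium release, had 33 reads in REH and 3 in 697 (log2 REH/697 of 2.81, interval 1.34 to 5.36). With LCP2, the adaptor SH3BP2 was higher in 697 (293 and 942 reads, log2 ratio -2.13). The most abundant adaptors per kb were PIK3AP1, which draws PI3K to the receptor, in REH (118 CPM per kb) and LAT2 in 697 (122 CPM per kb).

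In the calcium branch, 8 of 9 listed genes were found and 1 passed the threshold, the transcription factor NFATC2 with 685 reads in REH and 2388 in 697 (log2 REH/697 of -2.25). Its median log2 ratio was -0.31, and PLCG1 led per kb in both lines. Of 13 other PI3K branch genes, 12 were under the threshold and the median was 0.45. The exception was PIK3R2, with 14 reads in REH and 2 in 697, whose exons lie to 76.4% within another gene on the same strand, so that its count is uncertain. The counts of both branches stand beside 12.5% of all genes tested higher in REH and 8.15% higher in 697. FOXO1, a transcription factor that AKT holds out of the nucleus, led per kb in REH (22.5 CPM per kb, log2 ratio 1.34), and AKT1 led in 697 (19.9, log2 ratio -0.63).

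Of 14 inhibitors of proximal signaling with enough reads, 3 were higher in REH, 0 were higher in 697 and 11 were under the threshold, with a median log2 ratio of 0.51. Against 12.5% of all genes tested higher in REH and 8.15% higher in 697, these counts lie near the background for a list of this size. PAG1, the membrane anchor that brings the inhibitory kinase CSK to SRC family kinases, had 31457 reads (626 CPM) in REH and 1824 reads (49.4 CPM) in 697, a log2 ratio of 3.66 (3.60 to 3.73). CSK itself reached 156 and 85.2 CPM (log2 REH/697 of 0.87). The phosphatase PTPN6 reached 48.4 and 94.2 CPM, and the lipid phosphatase INPP5D 235 and 111 CPM. CD300A (21 and 0 reads) and SLA2 (70 and 4 reads) were the other genes past the threshold, both with few reads, and SLA2 shares exons with RAB5IF on the opposite strand. The highest per kb were DOK3 in REH (149 CPM per kb) and UBASH3B in 697 (98.7).

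**Figure D4:**
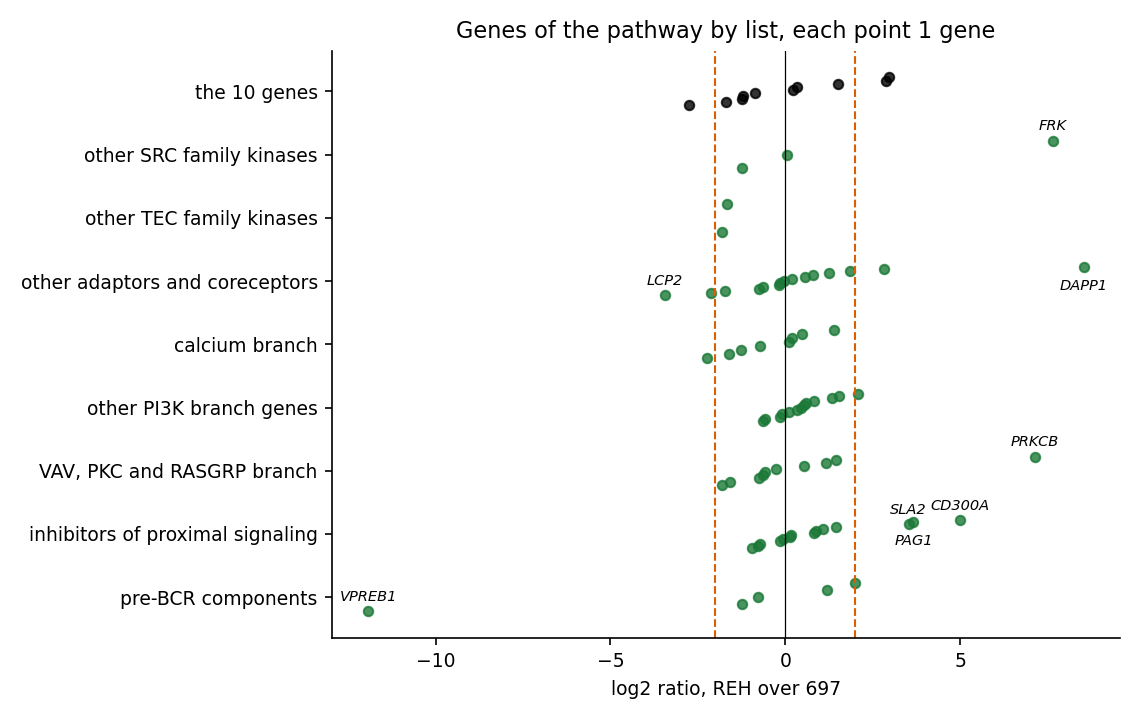
Log2 ratio of REH over 697 for the 10 genes (black) and for genes of the other pathway lists with at least 10 reads in a library (green), 1 point per gene. Dashed lines mark a log2 ratio of 2 in size, and names are given for genes beyond 3.2 in size. PRKCB, DAPP1 and FRK lie beyond 6 toward REH, and VPREB1 lies beyond 6 toward 697. Genes not reported here are not drawn.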

How the data were processed

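Total RNA of untreated REH and 697 cells (1 library per line, groups from the cell line label) was sequenced. The authors deposited raw read counts per gene from STAR, not normalized. The study's methods name hg38 and poly(A) selection, whereas the labels name hg19 and ribodepleted, stranded libraries, and the annotation release is not given in the sources used here. Each file holds counts on either strand, on the strand of the gene and on the opposite strand. The first was used, since 50.1% (REH) and 50.2% (697) of strand-assigned reads were on the gene's strand, so antisense transcripts cannot be separated. Reads mapping to several places (10.8% and 15.4%) are not in the counts. Of the 50-base words of the members' transcripts, at most 1.82% (BTK) occurred in genes elsewhere.

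Gene IDs were matched to GENCODE 44 (51996 of 57773), which gave symbols, positions and summed exon lengths. Its exons may differ from those on which the reads were counted, which bears on values per kb and on exon overlaps. ORAI1, PIK3R6, PECAM1, CD24 and TRAC were not analysed here, and some genes of the lists are counted with their list but not reported by name. Totals were scaled by TMM (edgeR 4.0.16, R 4.3.3), with factors of 1.11 and 0.899. Ratio intervals are exact Clopper-Pearson intervals, and changes between pairs have exact conditional intervals. DESeq2 1.42.0 gave size factors as an alternative. The computation was tested on simulated data. Python 3.11.15 was used for the remaining steps. The members, lists, rules and tests were chosen with earlier results of these data known. Named were all members and, in each other list, up to 4 genes whose log2 ratio reached 2 in size with at least 100 reads in a library, plus the gene highest per kb in each line. Named in addition after their values were seen were marker genes, SRC-family, TEC-family and class I PI3K genes, BANK1, BCL10, CD300A, CD33, CD3E, CD8A, CSK, FCGR1A, GRAP, INPP5D, LYZ, MALT1, PIK3R2, PRF1, PTPN6, SLA2 and the markers at 0.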

Additional observations from a re-analysis of the deposited data

How the results depend on the processing

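With 1 library per line, no replicate could be left out. No paired analysis was possible because REH and 697 came as single libraries. The settings tried were unscaled totals, size factors of DESeq2, TMM on protein-coding genes alone, minimums of 1 and 50 reads, 5 added reads and either strand column. Under all of them the numbers of the 10 genes past a log2 ratio of 2 were kept. Their median stayed within its interval of -1.69 to 2.88, which is too wide for this to be a strict check. All 10 genes had more reads than these minimums, which therefore acted only through the scaling. A change of scaling shifts all 10 ratios by the same amount. At a threshold of 1, 4 of the 10 were higher in 697. Of 90 single ratios of the 10 genes recomputed under 9 settings, 78 stayed within their counting interval and 0 changed sign. The other 12 left it in the same direction (10 of them with unscaled totals, 2 on the opposite strand). Most of these settings could hardly move a ratio. The strand columns are nearly even parts of the same reads, and their sum largely restores the pooled count. Adding 5 reads is little beside the counts of these genes. Apart from unscaled totals, the changes of scaling gave only small common shifts. Neither the 78 nor the kept numbers past a log2 ratio of 2 are therefore a strict check. The ZAP70 share of SYK and ZAP70 reads was 32.0% in 697 on the strand of the gene and 35.3% on the opposite strand, and per kb of the canonical transcript it was 16.9% in REH and 51.1% in 697. The canonical length and the sum of both strand columns were chosen after seeing the data. Depth limits only genes with few reads, since 3 reads are 0.0664 CPM in REH and 0.0730 CPM in 697 before scaling.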

Other observations

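Some pathway genes share exons with a neighbour, and reads that fit both genes were left out of the pooled count. When the strand columns were summed instead, 2 of 93 genes of the other lists changed side of the threshold and 0 changed sign. GRAP, an adaptor related to GRB2, overlaps SLC5A10 on the opposite strand over 59.6% of its exons. It had 327 reads in REH and 66 in 697 in the pooled column (log2 REH/697 of 1.86), against 6381 and 1086 in the summed strand columns (2.11). SLA2, an adaptor that dampens receptor signaling, overlaps RAB5IF on the opposite strand. Its counts were 70 and 4 in the pooled column (log2 REH/697 of 3.53) and 353 and 167 in the summed columns (0.63). The summed columns include reads of the neighbour, so neither value is a clean measure of these genes.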
